A study of Homo sapiens with 6 samples.

Results

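The subject is a set of 10 genes for immune checkpoint ligands and proteins that work beside them, measured by RNA sequencing in a human liver cancer line. They are CD274 (which encodes PD-L1), PDCD1LG2 (PD-L2), CD276 (B7-H3), VTCN1 (B7-H4), PVR, NECTIN2, CD47, NT5E (CD73), LGALS9 (galectin-9) and CMTM6. The genes were chosen by name, and their rows were found by pairing the Ensembl identifiers of the count table with symbols, which gave 10 of 20263 rows. The study exposed HCCLM3 cells, an established hepatocellular carcinoma line, to CC-885 for 24 h and set them against cells given DMSO, with 3 libraries in each group. CC-885 is a cereblon modulator, a small molecule that turns the ubiquitin ligase receptor cereblon towards proteins it does not otherwise mark. No dose is stated in the sources used here. Whether replicate libraries are separate cultures is not stated in the labels either, so a p-value reflects library-to-library spread that may be only technical.

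Checkpoint ligands are surface or secreted proteins by which a cell dampens immune cells that touch it. PD-L1 and PD-L2 bind PD-1 on T cells, PVR and NECTIN2 bind TIGIT and CD226 on T and natural killer cells, and CD47 binds SIRP-alpha on macrophages. NT5E works as an enzyme that makes adenosine outside the cell, and tumour cells can carry PD-L1 either all the time or after cytokines such as interferon-gamma.

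The libraries held 30432509 to 39809131 counts each. A count of 0 in a library allows a level of up to 0.078 to 0.0999 CPM (3 counts of the total, counting error only), where CPM is the TMM-normalised count scaled to library size. Of 8 hepatocyte and liver cancer markers, ALB, APOB, TTR and AFP were at 0 in every library and APOA1 and SERPINA1 had at most 6 counts, so the labelled liver cell type did not show the defining hepatocyte genes. The epithelial keratins KRT8 and KRT18 were abundant, at 890 and 657 CPM under CC-885 and 1250 and 758 CPM under DMSO. The leukocyte markers PTPRC, CD3E and LYZ were at 0 in every library, and the 7 leukocyte markers summed to 2.65 to 3.84 CPM under CC-885 and 3.57 to 4.8 CPM under DMSO. The 3 endothelial markers summed to 3.11 to 4.93 CPM under CC-885 and 0.872 to 1.35 CPM under DMSO, with PECAM1 at 0 in every CC-885 library. CDH5 (2.11 CPM under CC-885, 0.168 CPM under DMSO) and VWF (1.88 CPM under CC-885, 0.929 CPM under DMSO) rose. CDH5 passed the filter on low counts through its CC-885 libraries alone and had to differ to be tested. The VWF call was lost without CC-885 replicate 1, DMSO replicate 1 or DMSO replicate 2. The 3 fibroblast markers summed to 151 to 185 CPM under CC-885 and 157 to 187 CPM under DMSO. Within that last sum COL1A1 rose (155 CPM under CC-885, 104 CPM under DMSO), while PDGFRB (14.1 CPM under CC-885, 70.9 CPM under DMSO) and DCN (0.126 CPM under CC-885, 1.21 CPM under DMSO) fell. DCN had only 4, 5 and 4 counts under CC-885, against 55, 49 and 28 under DMSO. It passed the filter on low counts through its DMSO libraries alone and had to differ to be tested. The part of these markers in the results was not tested.

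Of the 10 genes, 8 passed the filter on low counts and were tested in a fit over 13444 genes, called at an adjusted p below 0.05. Of these, 4 rose (CD274, NT5E, PVR and PDCD1LG2, the last tested only through its CC-885 counts), 2 fell (CD276 and CD47) and 2 did not pass the test (NECTIN2 and CMTM6). For comparison, 52.6% of all tested genes were called, 25.8% higher and 26.8% lower. The groups did not overlap for 7 of the 8 tested genes, against 61.1% of all tested genes. The median log2 fold change was 0.47 over the 8 and -0.04 over all tested genes. These numbers describe the set and do not set it apart.

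**Figure D1:**
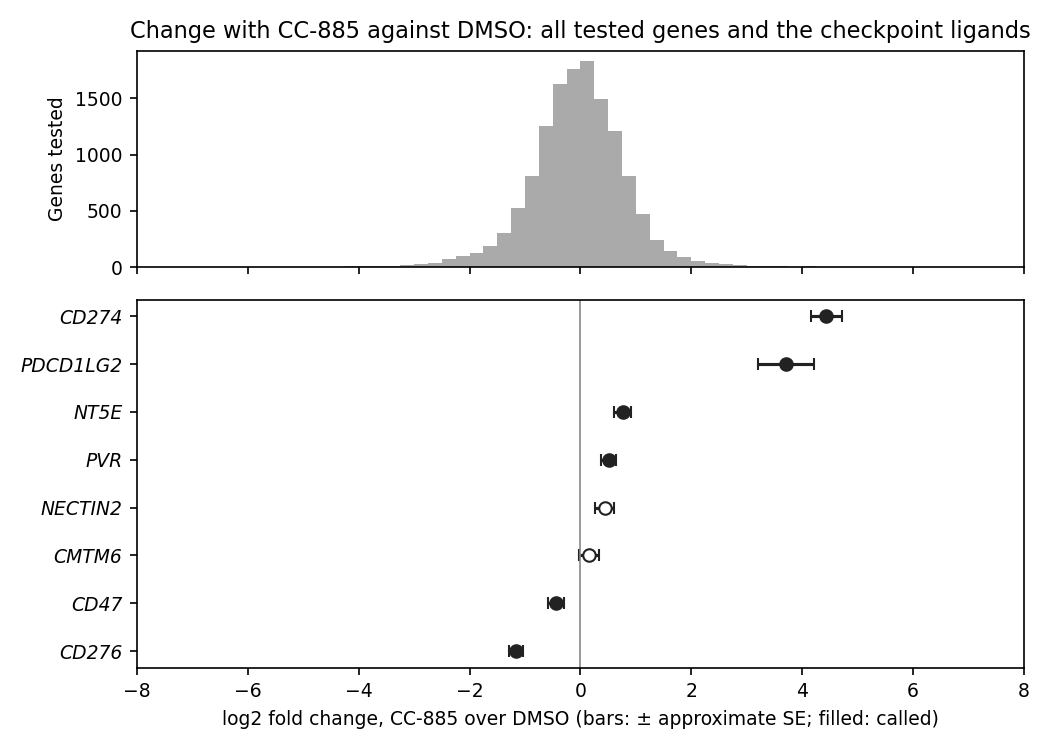
Top, the number of tested genes by log2 fold change (CC-885 over DMSO); bottom, the 8 tested checkpoint genes with bars of ± approximate SE, filled where called. CD274 (4.44) and PDCD1LG2 (3.71) lie in the far right of the distribution, while the other 6 lie between -1.16 and 0.76.

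Of the ligands of PD-1, CD274 rose under CC-885 from a level that passed the filter on low counts in both groups, and PDCD1LG2 was barely detected under DMSO. CD274 (ENSG00000120217), the main ligand of PD-1, was at 21.1, 22.3 and 20.9 CPM in the CC-885 libraries, against 0.574, 1.5 and 0.890 CPM in the DMSO libraries. Every CC-885 library was far above every DMSO library, and the CC-885 libraries lay close together while the DMSO libraries spread more widely relative to their mean. The underlying counts were 633, 859 and 719 under CC-885 and 22, 55 and 29 under DMSO. CD274 averaged 21.4 ± 0.78 CPM under CC-885 and 0.987 ± 0.47 CPM under DMSO (SD, n = 3 each), a log2 fold change of 4.44 (SE 0.28, edgeR quasi-likelihood test, adjusted p = 1.97e-06), or 21.7-fold. This placed CD274 at rank 24 from the highest of the 13444 tested genes by fold change. In bulk RNA, a change in how many cells express a gene and a change in RNA per cell cannot be told apart.

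PDCD1LG2 (ENSG00000197646), the other ligand of PD-1 and best known from dendritic cells and macrophages, was much rarer. It was at 2.30, 0.858 and 1.39 CPM in the CC-885 libraries, against 0.0783, 0.109 and 0.153 CPM in the DMSO libraries. The groups did not overlap, and CC-885 replicate 1 was the highest library. The counts were 69, 33 and 48 under CC-885 and only 3, 4 and 5 under DMSO, so the gene passed the filter on low counts through its CC-885 libraries alone and had to differ to be tested. The log2 fold change was 3.71 (SE 0.50, edgeR, adjusted p = 0.000117), with means of 1.52 ± 0.728 CPM under CC-885 and 0.114 ± 0.0378 CPM under DMSO. The DMSO level was close to the limit that a count of 0 allows.

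**Figure D2:**
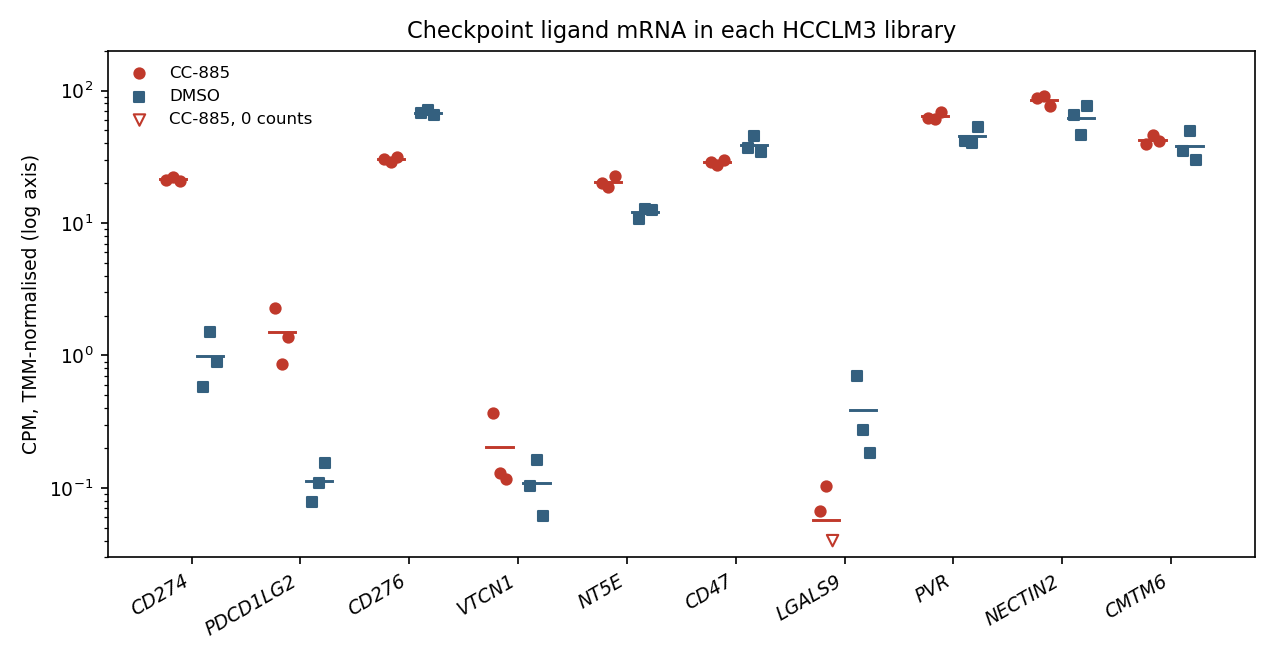
TMM-normalised CPM (log axis) of the 10 genes in each library, under CC-885 left of DMSO for each gene and a bar at the group mean. The open triangle at the bottom marks a library with 0 counts of LGALS9. CD274 lies between 20.9 and 22.3 CPM in the CC-885 libraries and between 0.574 and 1.5 CPM in the DMSO libraries, while CMTM6 overlaps between groups.

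The sequences before the annotated start sites are shown for the gene with the highest fold change in the set (CD274), for a gene that rose less (NT5E) and for a gene that fell (CD276, the first of its annotated starts), since their levels moved differently. They are the 250 bases upstream of the start, 5′ to 3′ on the gene's strand, from RefSeq on GRCh38.p14, at chr9:5450292-5450541, chr6:85449833-85450082 and chr15:73684133-73684382, all on the plus strand. Capitals mark matches to IRF (GAAANNGAA), GAS (TTCNNNGAA), NF-kB (GGNNNTTCC), AP-1 (TGANTCA), CRE (TGACGTCA), E-box (CACGTG) or TEAD (GGAATG) patterns on either strand, and GC boxes (GGGCGG) are left in lower case.
CD274: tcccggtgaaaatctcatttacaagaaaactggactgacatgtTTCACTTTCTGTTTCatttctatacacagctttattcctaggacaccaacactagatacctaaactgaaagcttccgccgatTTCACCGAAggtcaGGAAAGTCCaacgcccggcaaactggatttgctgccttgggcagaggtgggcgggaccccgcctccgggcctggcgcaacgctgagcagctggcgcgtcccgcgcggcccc
NT5E: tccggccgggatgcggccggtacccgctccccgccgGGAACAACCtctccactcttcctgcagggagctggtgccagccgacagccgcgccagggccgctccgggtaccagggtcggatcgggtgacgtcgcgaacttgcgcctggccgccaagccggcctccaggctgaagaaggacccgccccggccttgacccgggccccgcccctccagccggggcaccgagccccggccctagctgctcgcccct
CD276: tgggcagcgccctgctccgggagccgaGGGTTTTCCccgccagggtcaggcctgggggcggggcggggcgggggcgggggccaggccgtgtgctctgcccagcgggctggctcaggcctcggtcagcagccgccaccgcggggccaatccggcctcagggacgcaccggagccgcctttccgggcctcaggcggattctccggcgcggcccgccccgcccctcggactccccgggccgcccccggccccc
The CD274 sequence held 2 overlapping IRF matches at -207 to -199 and -201 to -193 from the start, a GAS match at -125 to -117, an NF-kB match at -111 to -103 and a single GC box. NT5E held an NF-kB match at -214 to -206 and 2 GC boxes, and CD276 an NF-kB match at -223 to -215 and 7 GC boxes.

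RefSeq windows (250 bases before to 50 after the start) were found for 9 of the 10 genes, and PDCD1LG2 had none. An IRF match was in 8.11% of 35116 such windows, a GAS match in 7.66%, an NF-kB match in 20.1% and a GC box in 45.0%. All 3 of IRF, GAS and NF-kB stood together in 61 windows (0.174%), of which CD274 is 1. The patterns were chosen after the sequences were seen, so this share does not measure how unusual the CD274 window is. Of the other genes, LGALS9 had an IRF match, VTCN1 an AP-1 match (7.71% of windows) and an NF-kB match, PVR a TEAD match (14%) and an NF-kB match, and NECTIN2 a CRE match (1.85%). CD47 and CMTM6 matched the GC box alone, 6 and 5 times. The second start of CD276 had 2 GC boxes alone. None of the 10 windows of the set held an E-box, which 7.26% of all windows did. A match describes letters in the window and says nothing of binding.

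CD274 and PDCD1LG2 lie side by side on chromosome 9. Of 11 listed neighbours, INSL6, RLN1 and RLN2 were at 0 in every library and 8 were tested, of which 2 rose and 3 fell, beside 25.8% and 26.8% of all tested genes. RIC1, which serves Golgi traffic, rose to 68.0 ± 7.14 CPM under CC-885, against 25.5 ± 1.88 CPM under DMSO (log2 fold change 1.41, edgeR, adjusted p = 9.9e-06). It shares exon bases on opposite strands with ERMP1, which fell (log2 fold change -0.74, edgeR, adjusted p = 0.000397). PLGRKT, a plasminogen receptor beside CD274, fell to 4.92 ± 0.816 CPM under CC-885, against 9.11 ± 1.86 CPM under DMSO (log2 fold change -0.89, edgeR, adjusted p = 0.00298). AK3, a mitochondrial adenylate kinase, also fell (-0.96, edgeR, adjusted p = 0.000357). RCL1 rose (0.46, edgeR, adjusted p = 0.0129), and missed the threshold once CC-885 replicate 2 was left out (0.40, edgeR, adjusted p = 0.0747). JAK2, INSL4 and MLANA did not pass the test, with log2 fold changes of 0.01, 0.02 and -0.35 (edgeR, adjusted p = 0.968, 0.922 and 0.607).

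**Figure D3:**
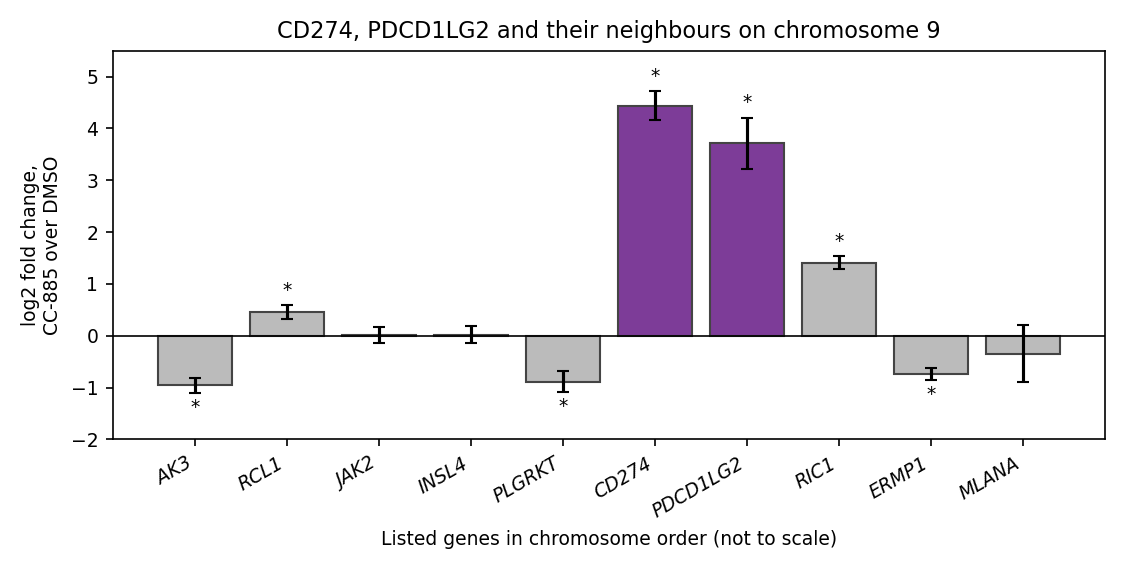
log2 fold change (CC-885 over DMSO, vertical axis) of CD274, PDCD1LG2 and the tested genes around them in chromosome order, with bars of ± approximate SE and asterisks on called genes. CD274 (4.44) and PDCD1LG2 (3.71) stand above all the neighbours shown, of which RIC1 (1.41) is the nearest in value.

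The genes whose pattern over the 6 libraries was most like that of CD274 were ATF3, RBBP8NL, DUSP5, ZNF699 and TRAF1. Likeness was the root mean square difference in log2 CPM, with each gene centred on its own DMSO mean, and was 0.28 for ATF3, 0.43 for RBBP8NL, 0.45 for DUSP5, 0.45 for ZNF699 and 0.47 for TRAF1. These were chosen on the same libraries, so their fold changes (log2 4.02 to 4.71) are a description.

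PD-L1 meets several other proteins whose mRNAs were measured. CMTM6 (ENSG00000091317), a membrane protein that keeps PD-L1 at the cell surface, was at 39.3, 45.9 and 42.0 CPM in the CC-885 libraries, against 34.8, 49.6 and 30.1 CPM in the DMSO libraries. The groups overlapped, under DMSO replicate 2 the highest of all. Its log2 fold change of 0.15 (SE 0.18) did not pass the test (edgeR, adjusted p = 0.49), and without DMSO replicate 2 it was 0.40 (adjusted p = 0.027). The log2 ratio of CD274 to CMTM6 counts within a library was -0.90, -1.04 and -1.01 under CC-885, against -5.89, -5.04 and -5.06 under DMSO. The difference was 4.35, with p = 0.1 in the exact two-sided permutation test, the smallest this design allows, and an adjusted p of 0.3 over the 3 ratios computed. CMTM7, on the opposite strand to CMTM6 with shared exon bases, was at 0 in every library.

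The ratio of CD274 to PDCD1LG2 overlapped between groups. Its log2 value was 3.19, 4.68 and 3.89 under CC-885, against 2.68, 3.62 and 2.42 under DMSO. CC-885 replicate 1 lay below DMSO replicate 2, so the groups overlapped. The difference was 1.01 (exact permutation test, p = 0.2, adjusted 0.3). In counts, CD274 exceeded PDCD1LG2 in each of the 6 libraries.

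Of 7 other CMTM family genes, 2 were tested, 1 rose and 1 fell, beside 25.8% and 26.8% of all tested genes. CMTM3 rose to 3.88 ± 0.309 CPM under CC-885, against 1.80 ± 0.797 CPM under DMSO (log2 fold change 1.10, edgeR, adjusted p = 0.00803). CMTM4, which can stand in for CMTM6 in protecting PD-L1, fell to 23.3 ± 1.46 CPM under CC-885, against 34.0 ± 2.67 CPM under DMSO (-0.55, edgeR, adjusted p = 0.0045). Of 16 genes for PD-L1 turnover and glycosylation, all tested, 2 rose and 2 fell, beside 25.8% and 26.8% of all tested genes, with a median log2 fold change of 0.04, against -0.04 over all tested genes. ARIH1, a ubiquitin ligase, rose (1.02, edgeR, adjusted p = 5.09e-05), as did the kinase GSK3B (0.58, edgeR, adjusted p = 0.00379). The glycosyltransferase B3GNT3 fell (-1.12, edgeR, adjusted p = 0.001), as did the ubiquitin ligase MARCHF8 (-0.65, edgeR, adjusted p = 0.00283). ARIH1 shares exon bases with other annotated genes, so its count is less certain.

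Genes listed as inputs to CD274 transcription moved mostly upward in the NF-kB and AP-1 lists, beside 25.8% of all tested genes that rose. The lists were chosen with earlier results of these data known. Any part of these genes in the level of CD274 was not tested. All 7 genes of the NF-kB list rose (median log2 fold change 1.84), among them RELB (117 ± 18.1 CPM under CC-885, 12.8 ± 2.5 CPM under DMSO, log2 fold change 3.20, edgeR, adjusted p = 4.46e-07) and NFKB2 (2.75, edgeR, adjusted p = 1.43e-06). The list also holds NFKBIA, which encodes an inhibitor of NF-kB. Of 17 AP-1, MYC, HIF and YAP genes, 15 rose and 0 fell (median 1.33), led by ATF3 (4.62, edgeR, adjusted p = 4.44e-08) and JUN (684 ± 53.1 CPM under CC-885, 33.4 ± 6.07 CPM under DMSO, 4.35, edgeR, adjusted p = 5.36e-08). The call of MYC (0.42, edgeR, adjusted p = 0.0287) was lost when any CC-885 library or DMSO replicate 1 was left out. It was also lost with library size only (adjusted p = 0.0585) and with CPM 5 or more in 3 or more libraries (0.0558). BATF3 lost its call without CC-885 replicate 1 (adjusted p = 0.063). Of 14 interferon-gamma and JAK-STAT genes, 4 rose and 2 fell (median 0.16), beside 25.8% and 26.8% of all tested genes. Besides IRF1, JAK1 rose (0.62, edgeR, adjusted p = 0.00205), as did PTPN2 (0.68, edgeR, adjusted p = 0.00349) and SOCS3 (0.58, edgeR, adjusted p = 0.00758). PTPN2 and SOCS3 encode inhibitors of JAK-STAT signalling. IRF1, a transcription factor that acts on CD274, rose to 49.5 ± 4.77 CPM under CC-885, against 10.2 ± 1.44 CPM under DMSO (2.29, edgeR, adjusted p = 1.26e-06), and shares exon bases with C5orf56 on the opposite strand. STAT2 fell (-0.67, edgeR, adjusted p = 0.00237), and TYK2 fell (-0.33, edgeR, adjusted p = 0.0394), which failed when any CC-885 library or DMSO replicate 1 was left out (adjusted p = 0.056, 0.123 and 0.137 for CC-885 replicates 1, 2 and 3, and 0.142) or with no filter on low counts (0.0584). Of 5 genes listed as regulators of CD274 mRNA stability, 2 rose and 0 fell, beside the same shares: ZFP36L2 (1.06, edgeR, adjusted p = 0.000184) and ZFP36L1 (0.77, edgeR, adjusted p = 0.0146). The call of ZFP36L1 was lost without DMSO replicate 2 (adjusted p = 0.0786) and with a replicate block (adjusted p = 0.0784). ZFP36, named after its values were seen, had the highest log2 fold change of the list and did not pass (1.76, edgeR, adjusted p = 0.0941). It was at 15.1, 15 and 52.8 CPM in the CC-885 libraries, and passed with the DESeq2 Wald test (adjusted p = 0.0231) and limma-voom (adjusted p = 0.0278).

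Of the B7 relatives of PD-L1, CD276 fell. CD276 (ENSG00000103855), an immune regulator whose receptor is not settled, was at 30.5, 29 and 31.5 CPM in the CC-885 libraries, against 67.6, 71.1 and 65.1 CPM in the DMSO libraries. The groups were far apart, and within each group the libraries were close. The log2 fold change was -1.16 (SE 0.12, edgeR, adjusted p = 1.78e-05), which left CD276 at 0.446 of its DMSO level (30.3 ± 1.27 CPM under CC-885, 67.9 ± 3.04 CPM under DMSO). VTCN1 (ENSG00000134258), an inhibitor of T cells, had 11, 5 and 4 counts under CC-885, against 4, 6 and 2 under DMSO, and was filtered out. The groups overlapped, and with means of 0.204 ± 0.141 CPM under CC-885 and 0.110 ± 0.0512 CPM under DMSO the exact permutation test gave p = 0.4. The log2 ratio of these means was 0.90, and 0.17 without CC-885 replicate 1.

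Among 11 other B7 and butyrophilin ligands, 8 were tested, 2 rose and 2 fell (median -0.31), near the 25.8% and 26.8% of all tested genes. BTN2A1, a butyrophilin that gamma-delta T cells recognise, rose to 98.9 ± 3.79 CPM under CC-885, against 45.0 ± 2.32 CPM under DMSO (log2 fold change 1.14, edgeR, adjusted p = 2.02e-05). NCR3LG1, the ligand of the natural killer receptor NKp30, also rose (0.80, edgeR, adjusted p = 0.000469). The butyrophilins BTN3A1 (-1.33, edgeR, adjusted p = 0.00211) and BTN3A3 (-1.14, edgeR, adjusted p = 0.00444) fell. BTN3A2, named after its values were seen, had the lowest log2 fold change of the list and did not pass (-1.48, edgeR, adjusted p = 0.0507), but did under 6 alternatives (adjusted p = 0.00129 to 0.0433). The BTN3A genes are near copies, so their counts are less certain. CD80 and CD86, the ligands of CD28 and CTLA4, had at most 3 counts in a library.

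The ligands of TIGIT both had higher means under CC-885, and PVR passed the test. PVR (ENSG00000073008), also called CD155, was at 62.1, 61.5 and 69.5 CPM in the CC-885 libraries, against 41.9, 40 and 53.4 CPM in the DMSO libraries. The groups did not overlap. The log2 fold change was 0.51 (SE 0.14, edgeR, adjusted p = 0.00972), or 1.43-fold. PVR shares exon bases on the same strand with CEACAM19, which had 120, 172 and 137 counts under CC-885 and 249, 202 and 208 under DMSO. NECTIN2 (ENSG00000130202), a partner ligand in the same family, was at 87.5, 90.3 and 76.4 CPM in the CC-885 libraries, against 65.0, 46.4 and 76.3 CPM in the DMSO libraries. CC-885 replicate 3 and DMSO replicate 3 were nearly equal, and DMSO replicate 2 was the lowest. The log2 fold change of NECTIN2 was 0.44 (SE 0.17, edgeR, adjusted p = 0.0511) and did not pass the test. It passed without DMSO replicate 3 (0.60, adjusted p = 0.00335), and the adjusted p ran from 0.00335 to 0.132 over the libraries left out.

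Within a library, the log2 ratio of PVR to NECTIN2 was -0.50, -0.55 and -0.14 under CC-885, against -0.63, -0.21 and -0.52 under DMSO. The groups overlapped, and the difference was 0.06 (exact permutation test, p = 0.6, adjusted 0.6). Of 5 further nectin family genes, all tested, 2 rose and 2 fell, beside 25.8% and 26.8% of all tested genes. AFDN, the scaffold of nectins inside the cell, rose (0.82, edgeR, adjusted p = 0.000615). NECTIN3 rose as well (0.45, edgeR, adjusted p = 0.0157), which failed when DMSO replicate 1 or CC-885 replicate 3 or 2 was left out (adjusted p = 0.0709, 0.0613 and 0.0599). NECTIN4 (-1.49, edgeR, adjusted p = 0.00101) and NECTIN1 (-0.84, edgeR, adjusted p = 0.00189) fell.

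CD47 and NT5E moved in opposite directions. CD47 (ENSG00000196776), the signal that holds back macrophages, was at 28.8, 27.5 and 30.1 CPM in the CC-885 libraries, against 37.0, 45.6 and 34.2 CPM in the DMSO libraries. The groups did not overlap, and the DMSO libraries spread more. The log2 fold change was -0.44 (SE 0.14, edgeR, adjusted p = 0.022). CD47 missed the threshold when any of 3 libraries was left out: the adjusted p was 0.0644 for CC-885 replicate 1, 0.0915 for CC-885 replicate 2 and 0.0614 for DMSO replicate 2 (log2 fold change -0.30). Its soluble partner THBS1, an extracellular matrix protein that binds CD47, rose to 498 ± 28.0 CPM under CC-885, against 41.9 ± 8.42 CPM under DMSO (3.57, edgeR, adjusted p = 1.64e-07), and shares exon bases with FSIP1 on the opposite strand.

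NT5E (ENSG00000135318), which turns extracellular AMP into adenosine, was at 19.9, 18.7 and 22.5 CPM in the CC-885 libraries, against 10.8, 12.7 and 12.6 CPM in the DMSO libraries. Every CC-885 library was above every DMSO library. The log2 fold change was 0.76 (SE 0.15, edgeR, adjusted p = 0.00126), or 1.69-fold. Of 11 other adenosine pathway genes, 8 were tested, 0 rose and 5 fell (median -0.64), beside 25.8% and 26.8% of all tested genes. Among the 5, SLC29A1 (-0.39, edgeR, adjusted p = 0.0323) lost its call without CC-885 replicate 2 or 3 (adjusted p = 0.136 and 0.0915). The same held without DMSO replicate 1 or 3 (0.0861 and 0.0977). ENTPD2, a nucleotidase that hydrolyses extracellular ATP, fell to 2.93 ± 0.323 CPM under CC-885, against 12.6 ± 1.77 CPM under DMSO (-2.10, edgeR, adjusted p = 5.11e-06). ENPP1, another enzyme of extracellular nucleotides, fell (-0.92, edgeR, adjusted p = 0.00022), as did the adenosine receptor ADORA1 (-1.63, edgeR, adjusted p = 0.00073).

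LGALS9 (ENSG00000168961), a galectin that binds TIM-3, had 2, 4 and 0 counts under CC-885, against 27, 10 and 6 under DMSO, and was filtered out. No CC-885 library reached the lowest DMSO library, and DMSO replicate 1 held most of the DMSO counts. Its means were 0.0569 ± 0.0527 CPM under CC-885 and 0.387 ± 0.279 CPM under DMSO, and the exact permutation test gave p = 0.1, the smallest that 3 against 3 allows. The log2 ratio of the means was -2.77, and it was -2.01 without DMSO replicate 1 and -3.54 without CC-885 replicate 2. With no filter on low counts its log2 fold change was -2.67 (edgeR, adjusted p = 0.0256). It also passed the filter in 4 of the fits that left out a library. There it passed through its DMSO libraries alone and had to differ to be tested. LGALS9 fell in those without CC-885 replicate 1 (-2.77, edgeR, adjusted p = 0.0403), CC-885 replicate 2 (-3.50, 0.0195) and DMSO replicate 3 (-3.01, 0.0039), and missed the threshold in that without CC-885 replicate 3 (-2.12, 0.0625). Reads of its near copies LGALS9B (10, 15 and 19 counts under CC-885, 12, 14 and 7 under DMSO) and LGALS9C (1, 12 and 6 under CC-885, 7, 9 and 3 under DMSO) could be assigned to it or taken from it.

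Compared per kilobase of exon, NECTIN2 led the order of the 10 genes in both groups, and the place of CD274 differed. With CC-885, NECTIN2 (22.6 ± 1.96 CPM per kilobase), PVR (18.3 ± 1.27) and CMTM6 (9.61 ± 0.749) led. CD276 (5.47 ± 0.229) and CD274 (5.22 ± 0.19) followed with overlapping libraries. NT5E (4.50 ± 0.423), CD47 (3.50 ± 0.161) and PDCD1LG2 (0.641 ± 0.308) came next, and VTCN1 and LGALS9 last. With DMSO, NECTIN2 (16.7 ± 4.03), PVR (12.8 ± 2.06) and CD276 (12.3 ± 0.548) led with neighbours that overlapped, ahead of CMTM6 (8.65 ± 2.30), CD47 (4.73 ± 0.723) and NT5E (2.66 ± 0.24). CD274 (0.240 ± 0.114) was at place 7, and LGALS9, PDCD1LG2 and VTCN1 stood below it, overlapping one another but not CD274. CD274 was at place 5 under CC-885 and place 7 under DMSO. With the longest coding transcript as the length, CD276 (19.6 ± 0.876) stood above PVR (13.6 ± 2.18) under DMSO with no overlap. The places of CD274 were the same, though CD274, CD47 and NT5E then overlapped under CC-885. Under DMSO, CD274 (lowest library 0.158 CPM per kilobase) then overlapped LGALS9 (highest library 0.226).

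**Figure D4:**
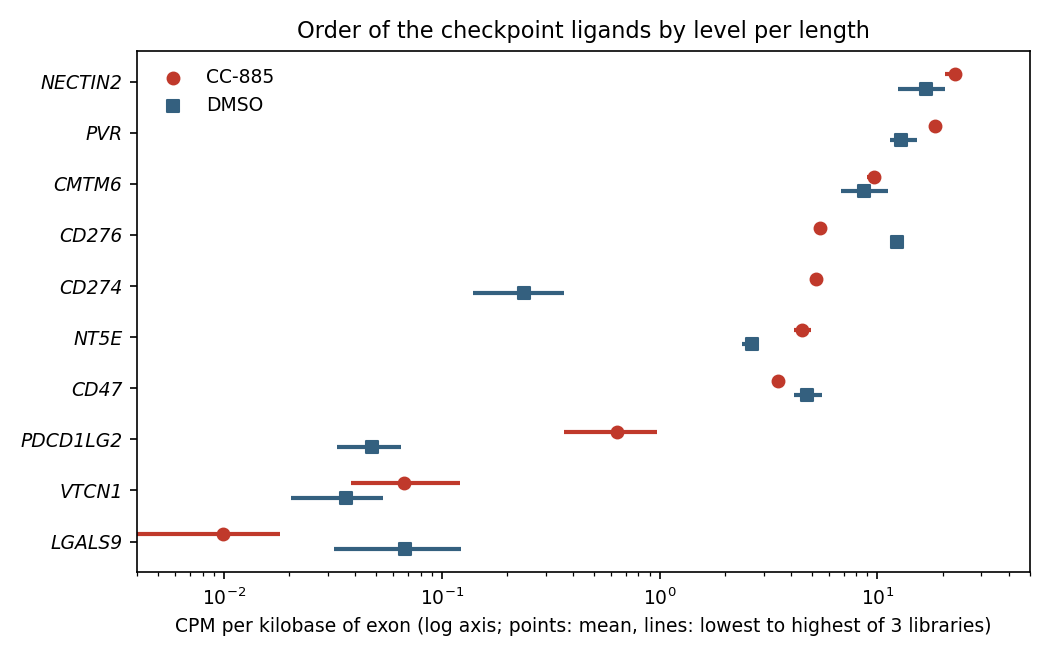
CPM per kilobase of exon (log axis) of the 10 genes, with points at the group mean and lines from the lowest to the highest library. CD274 averages 5.22 under CC-885 and 0.240 under DMSO; the LGALS9 line under CC-885 runs off the axis because 1 library was at 0.

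Ligands outside the set also moved. Of 8 ligands of NKG2D, the activating receptor of natural killer cells, 7 were tested, 5 rose and 0 fell (median 0.88), beside 25.8% and 26.8% of all tested genes. MICB rose to 177 ± 7.98 CPM under CC-885, against 63.7 ± 4.83 CPM under DMSO (1.48, edgeR, adjusted p = 5.27e-06), with ULBP2 (1.5, edgeR, adjusted p = 1.65e-05) and RAET1L (2.45, edgeR, adjusted p = 0.000152), though members of this family are near copies and their counts are less certain. RAET1L had 79 counts in each CC-885 library and 21, 18 and 7 under DMSO. Its DMSO libraries alone would not have passed the filter on low counts, so it was tested only through its CC-885 libraries. Of 10 other inhibitory ligands and enzymes, 6 were tested, 0 rose and 3 fell, beside 25.8% and 26.8% of all tested genes. HMGB1, also named after its values were seen, did not pass (-0.33, edgeR, adjusted p = 0.0509) but did under 7 alternatives (adjusted p = 0.0232 to 0.0486). TNFRSF14, the ligand of BTLA, fell to 2.35 ± 0.422 CPM under CC-885, against 8.92 ± 0.212 CPM under DMSO (-1.92, edgeR, adjusted p = 1.2e-05), and LGALS1 (-1.71, edgeR, adjusted p = 0.000474) and CD24 (-0.79, edgeR, adjusted p = 0.000299) fell too. Of 5 costimulatory TNF ligands, 2 were tested and 1 fell, TNFSF9 (-0.69, edgeR, adjusted p = 0.00309), beside 26.8% of all tested genes that fell. Of 12 receptors of immune cells, 2 were tested and 1 fell, beside the same 26.8%. It was LAG3 (-1.36, edgeR, adjusted p = 0.0082), which failed when DMSO replicate 1 was left out (adjusted p = 0.0523). LAG3 was low, with 11, 15 and 16 counts under CC-885 and 50, 26 and 37 under DMSO. PDCD1, the gene for PD-1, had 0 counts in each CC-885 library and 2, 4 and 0 in the DMSO libraries.

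**Figure D5:**
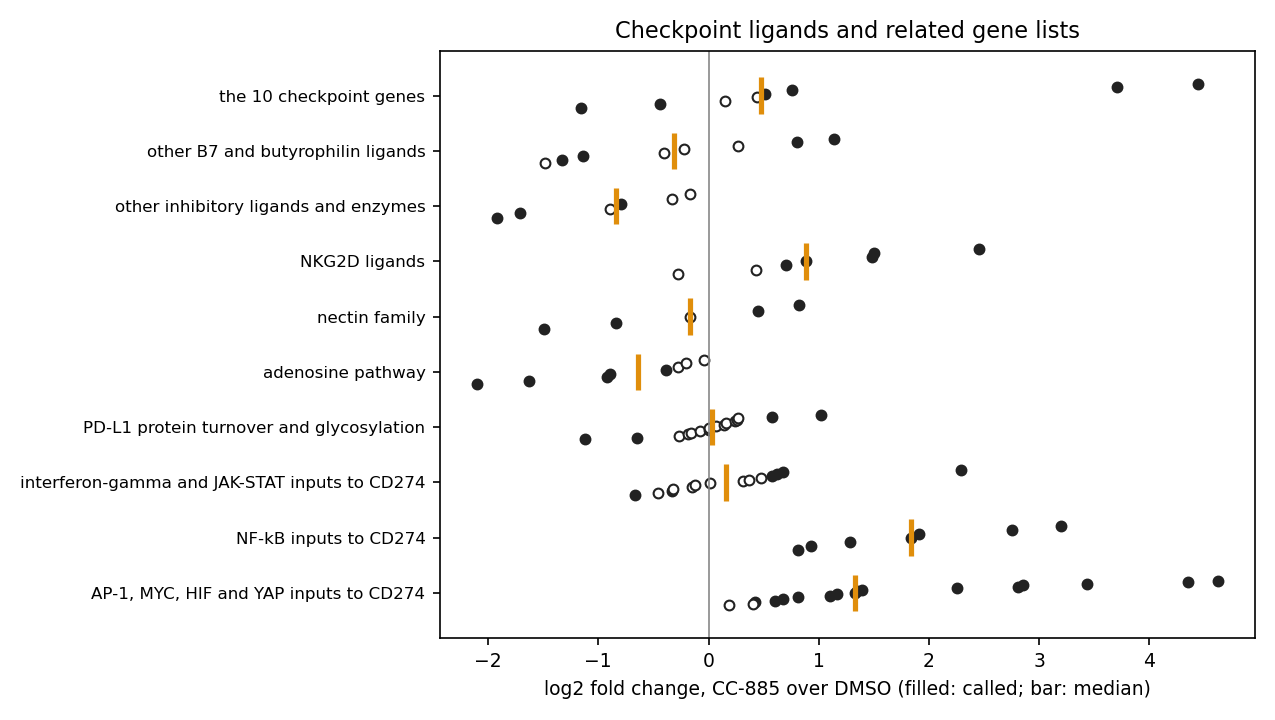
log2 fold change (CC-885 over DMSO) of each tested gene in the checkpoint set and the related lists, filled where called, with a bar at the list median. The NF-kB list (median 1.84) and the AP-1, MYC, HIF and YAP list (median 1.33) lie furthest to the right among the lists with at least 5 tested genes.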

How the data were processed

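RNA of HCCLM3 cells was sequenced in 6 libraries, 3 under CC-885 and 3 under DMSO. The values deposited by the authors are raw whole-number counts, as read from the table itself. No aligner, counter or annotation is given in the sources used here. Builds named in the submitters' processing notes are GRCm38 and mm10, but the row identifiers are human, so no coordinates come from the table. Symbols came from a gene table (20148 rows) or GENCODE 29 (76), and 39 rows had none. Of counts from 1 to 20, 66.8% were even, so a fragment may have been counted more than once. Strand use is not stated, so overlapping and antisense genes are less certain.

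Totals ran from 30432509 to 39809131. Tests used edgeR 4.0.16 in R 4.3.3: TMM factors, filterByExpr, robust quasi-likelihood F test, no covariate, Benjamini-Hochberg adjustment over 13444 genes, called below 0.05. SE was approximated by dividing the log2 fold change by the root of its F statistic. Ratios used counts plus 0.5. The fit was tested on simulated data with far fewer changed genes than were called here, so its behaviour under so wide a shift was not tested. Genes and lists were chosen with earlier results of these data known, and the promoter patterns after the sequences were seen. Named genes are all 10 checkpoint genes, up to 3 higher and 3 lower called genes of each list by p, the listed neighbours of CD274, and the 5 genes most like it. Alternatives were DESeq2 1.42.0 size factors and Wald test, library size only, limma-voom (limma 3.58.1), no filter, CPM 5 or more in 3 or more libraries, a replicate block, halved counts and each library left out. The reads were not used here.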

Additional observations from a re-analysis of the deposited data

How the results depend on the processing

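The directions of the 8 tested checkpoint genes did not reverse under any alternative run. Of the 10 genes, 6 were called, and 5 to 8 were called under the alternatives (5 with CPM 5 or more in 3 or more libraries, where PDCD1LG2 was not tested, 8 with no filter on low counts, 6 to 8 with a library left out). From 3 to 5 were called higher and, with a library left out, 1 to 3 lower, the 1 being without DMSO replicate 2, when CD47 was lost. NECTIN2 was also called with DESeq2 size factors (0.45, adjusted p = 0.0444), no filter (0.45, 0.0366) and the DESeq2 Wald test (0.45, 0.0318). Over the libraries left out, the log2 fold change ran from 4.15 to 4.89 for CD274, 3.29 to 4 for PDCD1LG2, -1.20 to -1.12 for CD276, 0.69 to 0.82 for NT5E, -0.52 to -0.30 for CD47, 0.45 to 0.65 for PVR, 0.27 to 0.60 for NECTIN2 and 0 to 0.40 for CMTM6. It ran from -3.54 to -2.01 for LGALS9 and 0.17 to 1.30 for VTCN1. The difference in log2 ratio ran from 4.07 to 4.49 for CD274 to CMTM6, 0.63 to 1.38 for CD274 to PDCD1LG2 and -0.07 to 0.18 for PVR to NECTIN2. Called genes over the whole table numbered 7069, and 5805 to 7296 with a library left out. Correlations of same-numbered deviations were low (0.0958, 0.0311 and 0.0722), and those of differently numbered libraries ran from -0.132 to 0.0373. These values do not settle whether the replicate numbers pair the libraries. A replicate block gave 7273 called genes and changed no call among the 8. Depth limits LGALS9, VTCN1 and, under DMSO, PDCD1LG2, whose counts were near 0.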
